A study of Homo sapiens with 6 samples.

Results

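The 40 autophagy machinery genes described here encode the proteins that build an autophagosome, load its cargo and process its membrane-bound ubiquitin-like tags. They were chosen by symbol for these roles, with earlier results of these data known, and 40 of 40 symbols were found among the 19863 rows of the deposited gene count table. The samples were cultures of NGP, an established MYCN-amplified human neuroblastoma cell line, kept in serum-containing medium. The OTSSP167 group (3 libraries) was treated for 12 h with 60 nM of OTSSP167, a small-molecule kinase inhibitor developed against MELK that the submitters describe as acting on CAMKV, a kinase-like protein. The DMSO group (3 libraries) received the same volume of the solvent DMSO. No genetic alteration was introduced in either group, and the design held 1 cell line, 1 dose and 1 time. Whether replicate libraries stand for separate cultures is not stated, and each p-value reflects the spread between these libraries alone, which may be technical.

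Autophagy encloses cytoplasm in a double membrane and delivers it to the lysosome. The ULK1 kinase complex starts the process, and a class III phosphatidylinositol 3-kinase complex then marks the forming membrane with phosphatidylinositol 3-phosphate (PI3P). WIPI proteins bind that lipid, ATG2 proteins carry further lipid to the membrane, and ATG9A and VMP1 move lipid between membrane leaflets. ATG7 acts like a ubiquitin-activating enzyme, and ATG3 and ATG10 act like ubiquitin-conjugating enzymes. Together they join ATG12 to ATG5 and the ATG8 family proteins to phosphatidylethanolamine. Cargo receptors bind both the cargo and the ATG8 proteins. Much of this pathway is controlled through phosphorylation and protein turnover, which mRNA counts do not measure.

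Total counts were 36401828 to 57460375 in the OTSSP167 libraries and 46230392 to 50810126 in the DMSO libraries, and the 40 genes averaged 2112 to 3262 counts per gene and OTSSP167 library and 2315 to 2515 per gene and DMSO library. Levels are CPM, a gene's counts per 1000000 counts of its scaled library, and a CPM value is relative to the other transcripts of its library. A change in RNA per cell or in the share of cells of a kind would not be told apart from a change in a transcript. Of the adrenergic neuroblastoma markers reported here, HAND2 and GATA3 were at 347 CPM or more in every library, PHOX2A and ISL1 fell by 1.25 and 1.16 on the log2 scale, GATA3 rose by 1.21, and TH, an enzyme of catecholamine synthesis, was at 0.148 CPM in OTSSP167 and 0.266 CPM in DMSO. Summed markers of other cells were low but not the same in both groups: 5 Schwann and glial markers summed to 5.21 to 8.17 CPM in OTSSP167 and 0 to 0.571 CPM in DMSO, and 5 immune markers to 14.9 to 19.3 CPM in OTSSP167 and 0.430 to 0.761 CPM in DMSO. Most of the immune sum was CD14, at 14.2 CPM in OTSSP167 and 0.391 CPM in DMSO, whereas CD3E was at 0 in the 6 libraries and SOX10, the defining Schwann factor, likewise. The 5 fibroblast and endothelial markers summed to 6.14 to 10.4 CPM in OTSSP167 and 15.3 to 20.0 CPM in DMSO, with DCN at 0. The part of these differences in the results below was not tested.

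OTSSP167 raised a small set of autophagy transcripts by moderate amounts and lowered 1. In edgeR's quasi-likelihood test with Benjamini-Hochberg adjustment over all genes and a threshold of 0.05, 11 of the 38 tested genes rose, FUNDC1 fell and 26 did not pass. The 12 genes are 31.6% of those tested, and over all 14402 genes tested 46.1% were called, 23.8% higher and 22.3% lower. No test of the autophagy genes against the rest was made. Their log2 fold changes had a median of 0.15, beside 0.01 over all genes tested. With upper-quartile scaling the median of all genes moved by 0.10 to 0.11, and that of the autophagy genes was 0.25. Against a change beyond 1.5-fold, PIK3C3 and ATG16L1 rose and FUNDC1 fell, where 10.6% of all genes passed as higher and 9.03% as lower, 19.6% together. The OTSSP167 and DMSO libraries did not overlap for 21 of the 38 genes (55.3%), and for 60.4% of all genes tested. ULK2 and GABARAPL1 had too few counts to be tested.

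These counts moved when a single library was left out. Such fits have fewer libraries, and calls over all genes tested fell from 6638 to between 5540 and 5870. How much of a lost call came from the smaller group was not tested. Without OTSSP167 replicate 2, 7 of the autophagy genes rose and 4 fell. Leaving out OTSSP167 replicate 1 gave 10 and 2, and OTSSP167 replicate 3 gave 9 and 2. Without DMSO replicate 1 the numbers were 9 and 1, without DMSO replicate 2 they were 6 and 1, and without DMSO replicate 3 they were 7 and 1. PIK3C3, ATG16L1, ATG12, UVRAG, BECN1, CALCOCO2 and FUNDC1 passed with every other tool, scaling and filter tried and with every single library left out. ATG13, ATG2B, ATG4D, OPTN and BNIP3L did not pass in 1 or more of these.

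**Figure D1:**
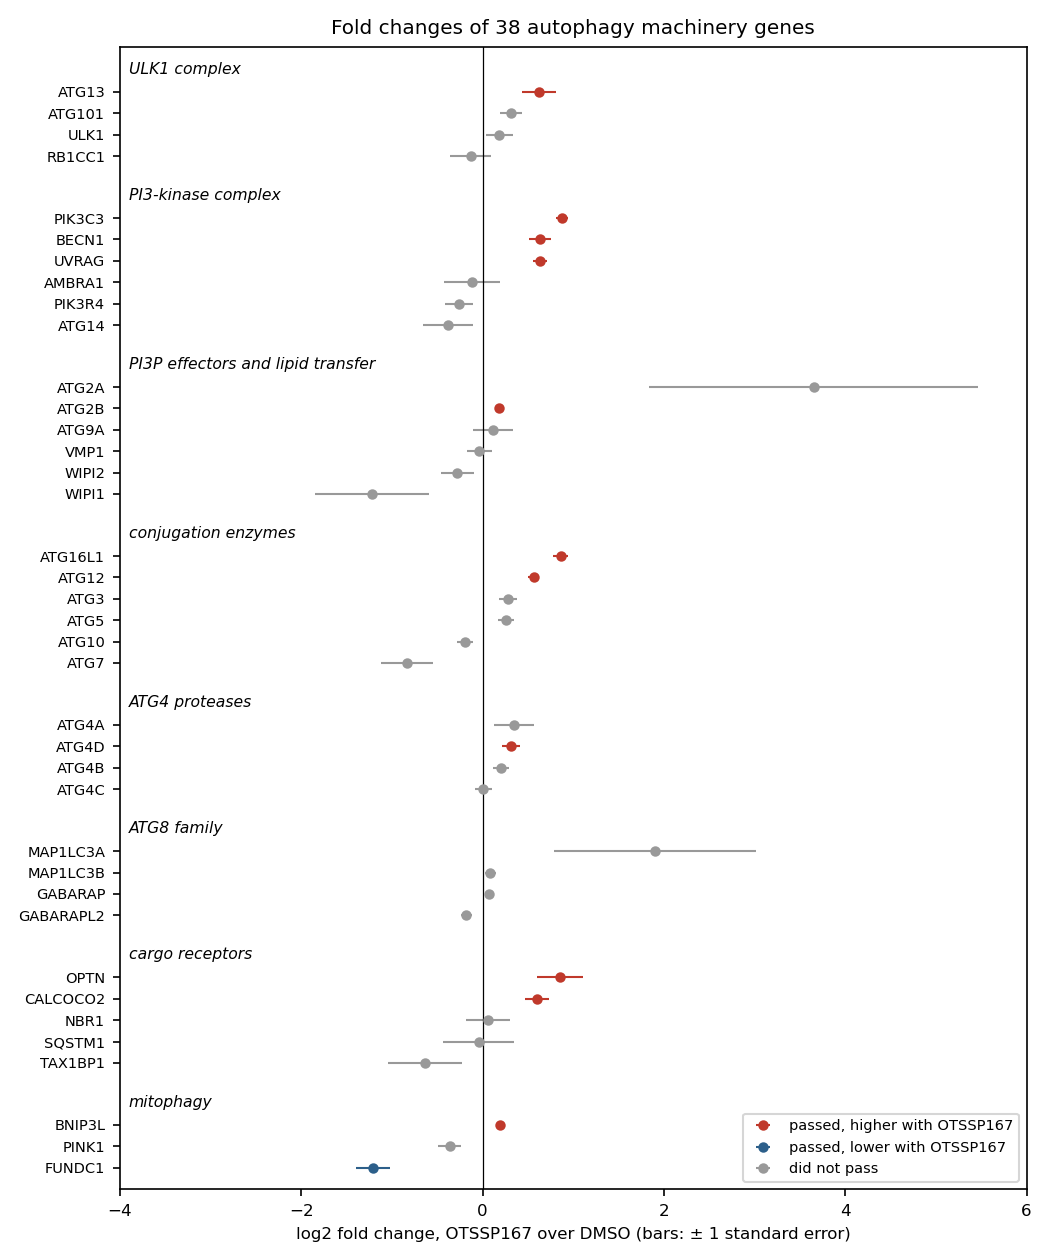
Log2 fold changes (OTSSP167 over DMSO, horizontal axis) of the 38 tested autophagy machinery genes, grouped by role, with bars of ± 1 standard error from edgeR. The genes that passed lie mostly between 0 and 1 on the higher side, FUNDC1 stands alone on the lower side, and ATG2A, MAP1LC3A and WIPI1 have the widest bars.

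Among the subunits of the initiating ULK1 complex, 1 of 4 tested genes rose (25% called, beside 46.1% of all genes tested). ATG13, the subunit that joins the kinase to its scaffold (chr11:46617527-46674818 on GRCh38), measured 71.4, 95.4 and 105 CPM in the OTSSP167 libraries, against 51.0, 56.3 and 69.2 CPM in the DMSO libraries. The groups were separated, though by only 71.4 to 69.2 CPM at their nearest libraries. The log2 fold change of ATG13 was 0.62 (SE 0.19, edgeR adjusted p = 0.0411), and it did not pass without OTSSP167 replicate 2 (adjusted p = 0.106) or 3 (0.108), or without DMSO replicate 1 (0.113) or 2 (0.112), with a range of 0.00792 to 0.484 over its alternatives. ULK1, the kinase itself, measured 87.2 ± 16.3 CPM in OTSSP167 and 76.7 ± 0.309 CPM in DMSO (SD, n = 3 each), with an edgeR adjusted p = 0.346. Its OTSSP167 libraries lay at 68.6, 99.2 and 94.0 CPM, on both sides of the DMSO libraries, and without OTSSP167 replicate 1 it passed (log2 fold change 0.33, adjusted p = 0.0146, range over its alternatives 0.0146 to 1). RB1CC1, the large scaffold also called FIP200, measured 64.2 ± 5.73 CPM in OTSSP167 and 70.2 ± 19.8 CPM in DMSO (adjusted p = 0.671). ATG101, which stabilises ATG13, stood at 33.4 ± 1.07 CPM in OTSSP167 and 26.9 ± 3.49 CPM in DMSO (log2 fold change 0.31, adjusted p = 0.0846). ULK2, the paralog of ULK1, had 4, 12 and 4 counts in the OTSSP167 libraries and 0 in each DMSO library, where 3 counts are the limit that a count of 0 allows. Of the paralogs, ULK1 thus held nearly all of the counts in both groups.

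The class III phosphatidylinositol 3-kinase complex held 3 of the 11 rises, and its other 3 genes did not pass. This is 50% called, near the 46.1% of all genes tested. PIK3C3 encodes VPS34, the lipid kinase of the complex (chr18:41955206-42087830), and it measured 123, 132 and 126 CPM in OTSSP167, against 68.6, 64.7 and 74.4 CPM in DMSO. Every OTSSP167 library was above every DMSO library by a wide margin, and the log2 fold change was 0.88 (SE 0.07, edgeR adjusted p = 0.000414). BECN1, the Beclin 1 scaffold of the complex (chr17:42810134-42833350), measured 85.1, 76.2 and 69.4 CPM in OTSSP167, against 56.0, 48.1 and 44.4 CPM in DMSO (log2 fold change 0.64, SE 0.12, adjusted p = 0.0094). Its exons overlap PSME3 over 300 bases and CNTD1 over 795 bases on the opposite strand. PSME3 fell by 2.08 and CNTD1 rose by 2.26 on the log2 scale. The sources used here give no strand setting, so reads in shared bases of opposite genes cannot be told apart. Their part in this and the following overlaps was not tested. Of the 38 tested genes, 22 had exons overlapping another gene, and not all overlaps are named below. PINK1 shared 39.4% of its exon length with PINK1-AS and WIPI1 24.3% with ARSG, on the opposite strand. On the same strand, ATG9A shared 38.8% with AC068946.2 and GABARAP 30.5% with AC120057.2. UVRAG, the subunit that defines the complex acting on endosomes and late autophagosomes (chr11:75815167-76143195), measured 48.8, 47.2 and 45.5 CPM in OTSSP167, against 31.6, 29.7 and 29.9 CPM in DMSO. The groups were again well apart, with a log2 fold change of 0.64 (SE 0.08, adjusted p = 0.00173).

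The partners of these subunits did not pass. PIK3R4, the regulatory kinase-like subunit VPS15, measured 45.2 ± 9.48 CPM in OTSSP167 and 54.1 ± 1.79 CPM in DMSO (log2 fold change -0.26, edgeR adjusted p = 0.232), and it passed as lower without OTSSP167 replicate 2 (-0.45, adjusted p = 0.0171, range 0.0171 to 1). ATG14, which defines the complex that acts at the forming autophagosome in place of UVRAG, measured 25.0, 13.3 and 18.4 CPM in OTSSP167, against 20.2, 23.6 and 29.7 CPM in DMSO (log2 fold change -0.38, SE 0.28, adjusted p = 0.315). AMBRA1, a regulator that binds Beclin 1, had overlapping groups (35.6 ± 14.2 CPM in OTSSP167 and 38.5 ± 6.79 CPM in DMSO, adjusted p = 0.784). The ratio of counts within a library, which needs no scaling, shows the unequal change directly. PIK3C3 had 3.19, 2.35 and 3.09 counts per PIK3R4 count in OTSSP167, against 1.24, 1.24 and 1.36 in DMSO. UVRAG had 1.95, 3.56 and 2.47 counts per ATG14 count in OTSSP167, against 1.56, 1.26 and 1.009 in DMSO. These pairs were chosen after their values were seen, so the ratios are given as a description with no test.

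**Figure D2:**
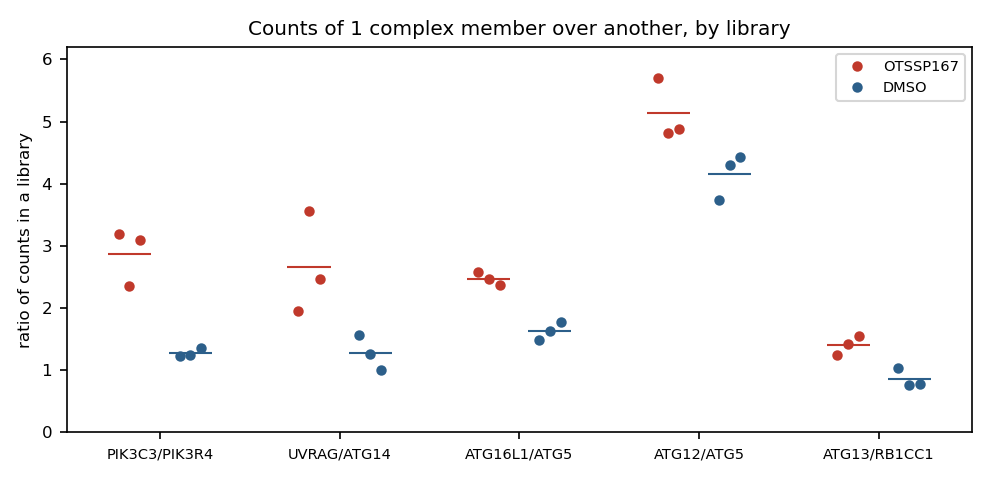
Ratio of the counts of 1 gene to those of another member of the same complex or pathway step in each library, OTSSP167 left of DMSO, with a line at the group mean. The OTSSP167 libraries lie above the DMSO libraries in the 5 pairs, which were chosen after the values were seen.

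For 2 genes that rose past 1.5-fold, PIK3C3 and ATG16L1, and for CALCOCO2 and FUNDC1, whose promoters held a match to a searched motif, the sequence before the start site is shown to let the windows be compared. They are RefSeq promoter sequences on GRCh38.p14, 5′ to 3′ on the gene's strand, with a motif match in capitals. PIK3C3 (chr18:41955114-41955233) and ATG16L1 (chr2:233251553-233251672), both on the plus strand, are the 120 bases before the RefSeq start site and hold no match. The ATG16L1 window lies inside the span of the gene in GENCODE (chr2:233210051-233295674), downstream of its start there. The sequence before that GENCODE start is not shown. CALCOCO2 (chr17:48830785-48830875, plus strand) holds the FOXO element TGTTTAC, read on the opposite strand as GTAAACA. FUNDC1 (chrX:44542955-44543082, minus strand) holds the E2F element TTTCGCGC.
PIK3C3: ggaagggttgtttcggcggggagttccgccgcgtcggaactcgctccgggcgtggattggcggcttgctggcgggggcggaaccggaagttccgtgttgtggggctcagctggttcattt
ATG16L1: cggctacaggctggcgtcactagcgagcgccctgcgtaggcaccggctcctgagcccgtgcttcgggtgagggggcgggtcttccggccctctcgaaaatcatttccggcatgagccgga
CALCOCO2: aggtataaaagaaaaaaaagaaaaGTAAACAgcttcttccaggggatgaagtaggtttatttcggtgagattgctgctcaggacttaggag
FUNDC1: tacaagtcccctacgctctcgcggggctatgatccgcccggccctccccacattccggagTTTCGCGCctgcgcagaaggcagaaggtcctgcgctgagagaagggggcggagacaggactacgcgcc

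RefSeq held 42 promoter windows (250 bases before to 50 after a start site) for 34 of the 40 genes, and 35116 windows over all genes. Each motif was searched on both strands. The ATF4 element TGATGNAA was in 0 of the 42 windows and in 3.62% of all windows. The E-box CACGTG was in 2 windows (ATG3 and ATG14), 4.76% against 7.26% of all, and its longer form TCACGTGA, the inner part of the element bound by TFEB and TFE3, was in the ATG3 window alone (0.98% of all). The FOXO element was in the CALCOCO2 window alone (3.42% of all), and the E2F element in those of ATG2A and FUNDC1 (0.515% of all). The windows of the autophagy genes had a median GC content of 63.2%, beside 58.7% over all windows, and a median of 25 CpG dinucleotides, beside 14. A match in a window is a description of its letters and does not show binding.

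Of 6 genes for PI3P effectors and lipid transfer, 1 rose (16.7% called, beside 46.1% of all genes tested). ATG2B, a bridge-like lipid transfer protein (chr14:96279202-96363870), measured 130, 133 and 131 CPM in OTSSP167, against 122, 114 and 112 CPM in DMSO. The groups were separated and the OTSSP167 libraries nearly alike, but the change was small (log2 fold change 0.18, SE 0.05, edgeR adjusted p = 0.0296). ATG2B did not pass with the replicate block (adjusted p = 0.0862), with no low-count filter (0.0505), or without OTSSP167 replicate 1 (0.0666), 2 (0.0828) or 3 (0.0687) or DMSO replicate 2 (0.112) or 3 (0.109), with a range of 0.00291 to 1. Its paralog ATG2A had 1764, 701 and 1446 counts in OTSSP167, against 386, 3 and 3 in DMSO. The groups were separated, yet DMSO replicate 1 held nearly all of the DMSO counts, and the test did not pass (log2 fold change 3.65, SE 1.81, adjusted p = 0.156). Without DMSO replicate 1 the estimate was 8.91 with an adjusted p = 0.00469, and with DESeq2 it was 3.68 (adjusted p = 0.0369), and the range over alternatives was 0.00469 to 0.28. Counts of 3 make the size of any such fold change dependent on the prior count. The WIPI genes, whose products read PI3P, did not pass: WIPI1 measured 0.919, 3.58 and 1.20 CPM in OTSSP167, against 6.35, 4.32 and 2.68 CPM in DMSO (adjusted p = 0.171). WIPI1 passed without OTSSP167 replicate 2 (log2 fold change -2.07, adjusted p = 0.0298, range 0.0298 to 0.379). WIPI2 measured 58.0, 37.4 and 40.4 CPM in OTSSP167, against 56.9, 55.1 and 52.7 CPM in DMSO, and it passed without OTSSP167 replicate 1 (-0.50, adjusted p = 0.0138, range 0.0138 to 1, and 0.264 with that library). The lipid scramblase genes ATG9A (37.1 ± 5.43 CPM in OTSSP167, 34.3 ± 9.38 CPM in DMSO) and VMP1 (46.2 ± 1.48 CPM in OTSSP167, 47.2 ± 8.20 CPM in DMSO) had overlapping groups.

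Of 6 genes of the conjugation step, 2 rose and 4 did not pass (33.3% called, beside 46.1% of all genes tested). The groups did not overlap for any of the 6, 4 higher and 2 lower with OTSSP167, beside 60.4% of all genes tested. ATG16L1, which places the conjugation enzyme on the forming membrane (chr2:233210051-233295674), measured 85.6, 93.1 and 88.7 CPM in OTSSP167, against 45.8, 48.0 and 53.3 CPM in DMSO. This is a log2 fold change of 0.86 (SE 0.08, edgeR adjusted p = 0.00076). ATG12, the ubiquitin-like protein joined to ATG5 (chr5:115828200-115841858), measured 189, 182 and 183 CPM in OTSSP167, against 116, 126 and 133 CPM in DMSO (log2 fold change 0.56, SE 0.06, adjusted p = 0.00116). Its exons share 378 bases with AP3S1 on the opposite strand, a gene that fell by 1.33. ATG5, the third part of the ATG12-ATG5-ATG16L1 unit, measured 33.2, 37.7 and 37.4 CPM in OTSSP167, against 30.9, 29.3 and 30.0 CPM in DMSO. It was 0.26 higher and just missed the threshold (SE 0.09, adjusted p = 0.0589), and it passed with DESeq2, with DESeq2 size factors, with upper-quartile scaling, with the filter of 1 CPM and without OTSSP167 replicate 1 (adjusted p = 0.00385 to 0.0466, range over all its alternatives 0.00385 to 1). ATG16L1 had 2.58, 2.47 and 2.37 counts per ATG5 count in OTSSP167, against 1.48, 1.64 and 1.78 in DMSO.

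The enzymes that activate and transfer the ubiquitin-like proteins differed among themselves. ATG3, the transferase for the ATG8 family, measured 49.7, 45.2 and 50.9 CPM in OTSSP167, against 43.2, 36.5 and 40.1 CPM in DMSO (log2 fold change 0.28, edgeR adjusted p = 0.0605). It passed with DESeq2, with DESeq2 size factors, with upper-quartile scaling and with the filter of 1 CPM. Its exons share 151 bases with SLC35A5 on the opposite strand, which fell by 1.00. ATG7, the activating enzyme for both conjugation branches, measured 10.4, 13.7 and 21.3 CPM in OTSSP167, against 27.1, 23.4 and 30.0 CPM in DMSO. Every OTSSP167 library was below every DMSO library, but they ranged over 2-fold and the test did not pass (log2 fold change -0.83, SE 0.29, adjusted p = 0.0634). ATG7 passed with DESeq2 (adjusted p = 0.0237), with limma-voom (0.0343) and without OTSSP167 replicate 3 (-1.16, 0.0128), with a range of 0.0128 to 0.287. ATG10, the transferase for ATG12, stood at 27.4 ± 1.12 CPM in OTSSP167 and 31.3 ± 1.64 CPM in DMSO (log2 fold change -0.19, adjusted p = 0.138). Its exons share 374 bases with RPS23 on the opposite strand, at 1831 CPM in OTSSP167 and 1129 CPM in DMSO. Exons of ATG7 share 1596 bases, 18.1% of their length, with VGLL4 on the opposite strand. VGLL4 measured 85.5 CPM in OTSSP167 and 85.3 CPM in DMSO.

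Of the 4 genes for ATG4 proteases, which trim ATG8 proteins and later free them from membranes, 1 rose. This is 25% called, beside 46.1% of all genes tested. ATG4D (chr19:10543895-10553418) measured 42.6, 40.7 and 35.8 CPM in OTSSP167, against 32.3, 33.0 and 30.3 CPM in DMSO (log2 fold change 0.32, SE 0.10, edgeR adjusted p = 0.0462). It lost the call in 5 of the 6 analyses with a library left out (adjusted p = 0.0914 to 0.136), with the replicate block (0.0807) and with no low-count filter (0.0622), in a range of 0.00437 to 1. It passed without OTSSP167 replicate 3. Exons of ATG4D share 341 bases, 15% of their length, with KRI1 on the opposite strand, which rose by 0.99. ATG4B, the most active family member, measured 128, 131 and 106 CPM in OTSSP167, against 105, 104 and 108 CPM in DMSO (adjusted p = 0.126). It passed without OTSSP167 replicate 3 (log2 fold change 0.29, adjusted p = 0.0126) and with upper-quartile scaling (0.31, 0.0369), with a range of 0.0126 to 1. ATG4A (8.24 ± 1.80 CPM in OTSSP167, 6.498 ± 0.87 CPM in DMSO) and ATG4C (23.1 ± 1.09 CPM in OTSSP167, 22.9 ± 0.454 CPM in DMSO) had overlapping groups.

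**Figure D3:**
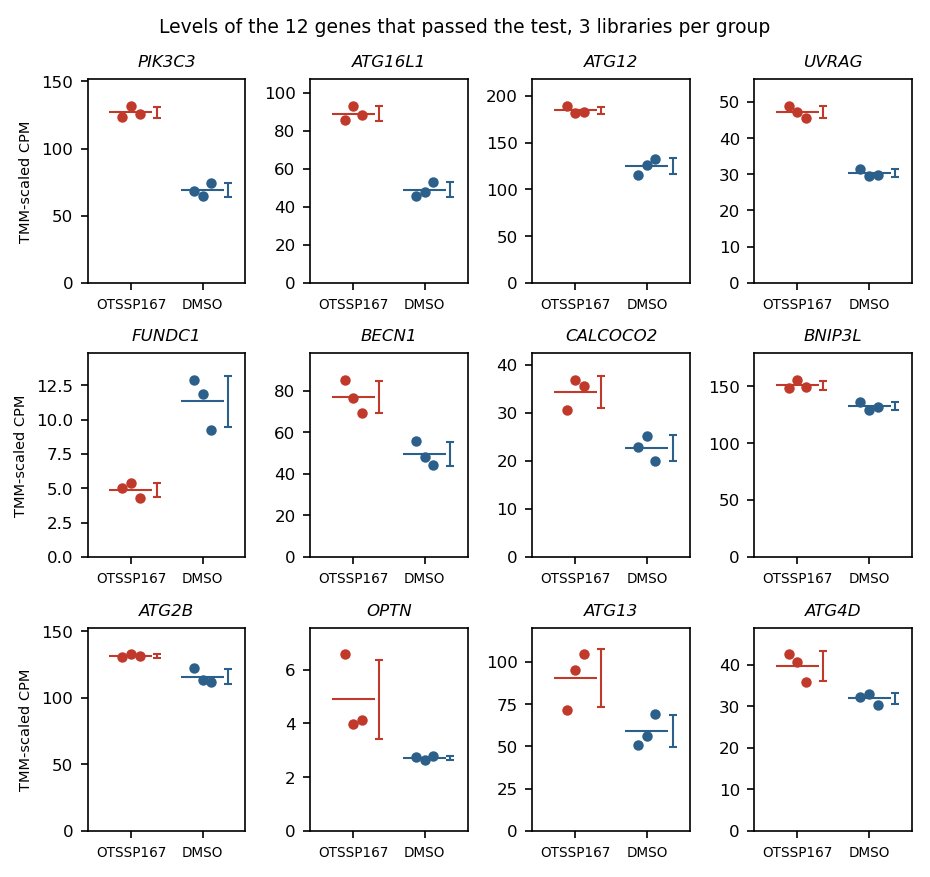
Scaled CPM (vertical axes, from 0) of the 12 genes that passed the test, ordered by p, in the 3 OTSSP167 libraries and the 3 DMSO libraries, with a line at the mean and a bar of ± 1 SD. The groups do not overlap in any of the 12 genes, beside 60.4% of all genes tested. The 12 were picked by the test on these same libraries, so their separation is no added support. FUNDC1 is the gene that is lower with OTSSP167, at 4.31 to 5.35 CPM against 9.24 to 12.9 CPM in DMSO.

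None of the 4 tested genes of the ATG8 family, the small proteins attached to the autophagosome membrane, passed the edgeR test. Over all genes tested 46.1% passed. Of the 4, 1 had an unadjusted edgeR p under 0.05 (GABARAPL2), and 2 passed with DESeq2 and 0 with limma-voom. GABARAP measured 208, 208 and 206 CPM in OTSSP167, against 192, 202 and 198 CPM in DMSO (log2 fold change 0.07, SE 0.03, adjusted p = 0.124). MAP1LC3B, whose lipid-bound protein is the common marker of autophagosomes, measured 86.9, 86.3 and 89.8 CPM in OTSSP167, against 78.9, 88.2 and 80.6 CPM in DMSO (log2 fold change 0.09, SE 0.06, adjusted p = 0.317). GABARAPL2 measured 78.5, 82.7 and 75.3 CPM in OTSSP167, against 88.4, 91.3 and 88.1 CPM in DMSO. It was lower in the 3 OTSSP167 libraries and just missed the threshold (log2 fold change -0.18, SE 0.06, adjusted p = 0.0511), passing in 4 of its alternatives (DESeq2, library size only, no low-count filter, and without OTSSP167 replicate 2). GABARAP passed as higher in 3, namely DESeq2, upper-quartile scaling and the filter of 1 CPM. MAP1LC3A had 24, 15 and 39 counts in OTSSP167, against 14, 11 and 0 in DMSO, too few for a precise estimate (SE 1.11). GABARAPL1 is listed at 0 in the 6 libraries. Whether the undocumented counting step gave this 0 was not tested, so no level is drawn from it.

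Per kilobase of annotated exon, GABARAP made up the larger part of the ATG8 family transcripts. Its share of the family's counts per kilobase was 68.1 ± 0.273% in OTSSP167 and 65.9 ± 0.472% in DMSO (SD, n = 3 each). GABARAPL2 held 19.3 ± 0.738% in OTSSP167 and 22.3 ± 0.276% in DMSO, and MAP1LC3B 12.3 ± 0.372% in OTSSP167 and 11.8 ± 0.417% in DMSO. The log2 ratio of GABARAP to GABARAPL2 counts was 1.41, 1.33 and 1.45 in OTSSP167, against 1.12, 1.14 and 1.17 in DMSO. The log2 ratio of GABARAPL2 to MAP1LC3B counts was -0.15, -0.06 and -0.25 in OTSSP167, against 0.16, 0.05 and 0.13 in DMSO. Both ratios separated the groups, each with an exact 2-sided permutation p of 0.1, the smallest that 3 against 3 libraries allow, and 0.15 adjusted over the 6 paralog pairs with a value. Of the other 4 pairs, ATG2A/ATG2B and ATG4C/ATG4D also separated the groups, with the same exact p, and WIPI1/WIPI2 (0.3) and ATG4A/ATG4B (0.8) did not. The exon lengths are those of all annotated transcripts joined, and the transcripts used in these cells are not known. The shares depend on that length. As shares of counts not divided by length, MAP1LC3B held 23.4% in OTSSP167 and 22.3% in DMSO, GABARAPL2 21.0% in OTSSP167 and 24.2% in DMSO, and GABARAP 55.4% in OTSSP167 and 53.4% in DMSO. MAP1LC3B was then above GABARAPL2 in OTSSP167, the reverse of their order per kilobase. GABARAPL1 enters both sums as 0.

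**Figure D4:**
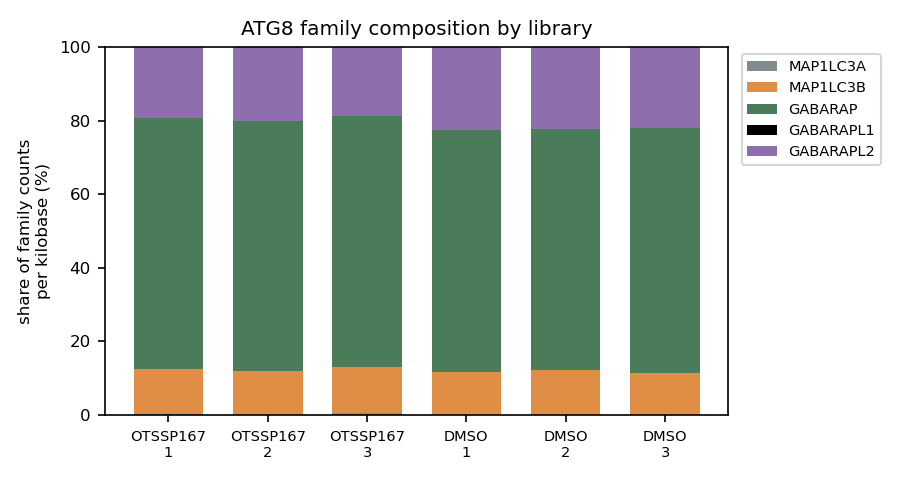
Share of ATG8 family counts per kilobase of annotated exon (vertical axis, percent of the family sum) held by each gene in the 3 OTSSP167 and 3 DMSO libraries. GABARAP holds 65.5 to 68.3% in every library, GABARAPL2 holds a smaller share in OTSSP167 than in DMSO, and MAP1LC3A and GABARAPL1 are too low to see.

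Of 5 cargo receptors, CALCOCO2 and OPTN rose (40% called, beside 46.1% of all genes tested). CALCOCO2, also called NDP52, a receptor for bacteria and damaged mitochondria (chr17:48830988-48866522), measured 30.6, 36.9 and 35.7 CPM in OTSSP167, against 23.0, 25.2 and 19.9 CPM in DMSO (log2 fold change 0.60, SE 0.13, edgeR adjusted p = 0.0147). OPTN, the receptor optineurin (chr10:13099449-13138308), was expressed at a low level, 6.58, 3.98 and 4.12 CPM in OTSSP167, against 2.74, 2.62 and 2.79 CPM in DMSO. The OTSSP167 libraries were spread where the DMSO libraries were nearly alike (log2 fold change 0.85, SE 0.25, adjusted p = 0.0396). OPTN did not pass with the replicate block (adjusted p = 0.0875) or without OTSSP167 replicate 1 (0.0721), OTSSP167 replicate 3 (0.0527) or any single DMSO library (0.098 to 0.107), with a range of 0.0047 to 0.222. Its exons share 147 bases with CCDC3 on the opposite strand, which fell by 1.58.

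The other receptors were scattered between libraries. SQSTM1, which encodes p62, the best-known receptor for ubiquitin-tagged cargo, measured 27.6, 58.6 and 72.4 CPM in OTSSP167, against 61.1, 63.7 and 38.7 CPM in DMSO. Its lowest and highest values were both in OTSSP167 libraries, and the fold change was -0.04 on the log2 scale with an SE of 0.40 (edgeR adjusted p = 0.936). TAX1BP1, a receptor for ubiquitin-tagged aggregates, measured 24.2, 50.7 and 77.1 CPM in OTSSP167, against 81.0, 73.9 and 81.9 CPM in DMSO (log2 fold change -0.64, SE 0.41, adjusted p = 0.253). NBR1, a partner of p62, measured 47.0, 27.1 and 45.3 CPM in OTSSP167, against 38.6, 42.7 and 32.9 CPM in DMSO (adjusted p = 0.849). Exons of SQSTM1 share 1582 bases, 20.7% of their length, with MRNIP on the opposite strand, whose level is not given here. They share a further 105 bases with MGAT4B on the opposite strand, which fell by 1.95. The groups overlapped for SQSTM1 and NBR1, and for TAX1BP1 at 1 OTSSP167 library. OTSSP167 replicate 1 held the lowest value of both SQSTM1 and TAX1BP1, and OTSSP167 replicate 2 that of NBR1.

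**Figure D5:**
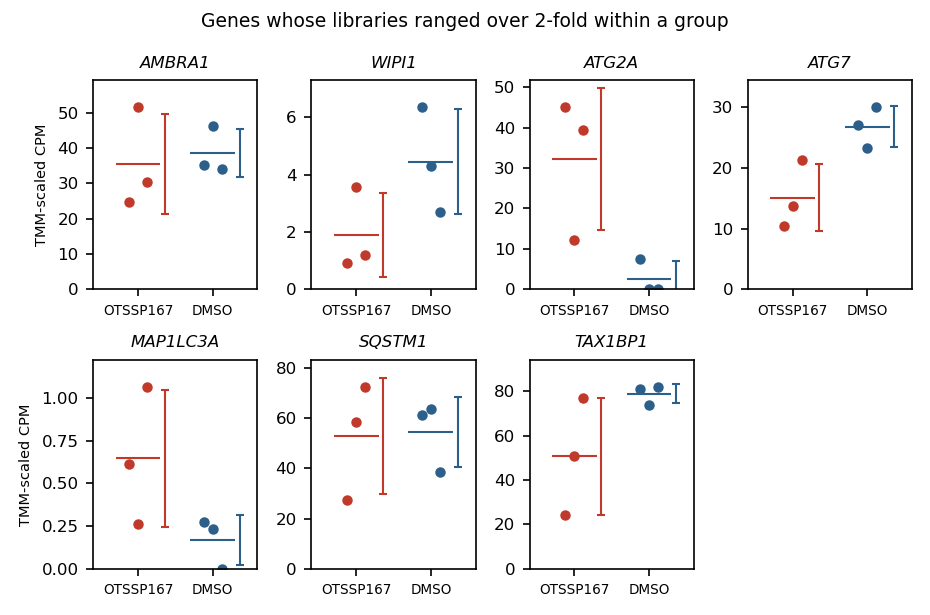
Scaled CPM (vertical axes, from 0) of the 7 tested genes whose libraries ranged over 2-fold within a group, OTSSP167 left of DMSO, with a line at the mean and a bar of ± 1 SD that stops at the axis where it would fall below 0. TAX1BP1 runs from 24.2 to 77.1 CPM in OTSSP167 and from 73.9 to 81.9 CPM in DMSO, and ATG2A reaches 7.54 CPM in DMSO replicate 1 alone among the DMSO libraries.

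The 7 genes that ranged over 2-fold between libraries of a group were AMBRA1, WIPI1, ATG2A, ATG7, MAP1LC3A, SQSTM1 and TAX1BP1. They are 18.4% of the 38 tested genes, beside 34.8% of all genes tested, and none of them passed. The median standard error of the log2 fold change was 0.091 for the 12 genes that passed, 0.17 for the 26 that did not, and 0.227 over all genes tested. The standard error is computed from the same test that sorts the genes. The lower value of the 12 genes, and the lack of a pass among the 7, thus follow in part from that test. Libraries of ATG7 and TAX1BP1 were spread, with standard errors of 0.29 and 0.41, while that of BNIP3L was 0.04.

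Of the 3 mitophagy genes, 1 rose, 1 fell and 1 did not pass (66.7% called, beside 46.1% of all genes tested). The groups did not overlap for any of these 3 genes, beside 60.4% of all genes tested. FUNDC1, a receptor of the outer mitochondrial membrane (chrX:44523639-44543001), measured 5.00, 5.35 and 4.31 CPM in OTSSP167, against 12.9, 11.8 and 9.24 CPM in DMSO. This was the largest change among the genes that passed, with a log2 fold change of -1.21 (SE 0.19, edgeR adjusted p = 0.00435), and it held beyond 1.5-fold. BNIP3L, also called NIX, another outer-membrane receptor (chr8:26382898-26505636), measured 148, 155 and 149 CPM in OTSSP167, against 136, 129 and 132 CPM in DMSO. The rise of BNIP3L was small (log2 fold change 0.19, SE 0.04, adjusted p = 0.0162). It did not pass with the replicate block (0.0721) or without OTSSP167 replicate 2 (0.0511), DMSO replicate 2 (0.0597) or DMSO replicate 3 (0.058), with a range of 0.000204 to 1. Its exons share 330 bases with PNMA2 on the opposite strand, which fell by 1.10. PINK1, the kinase that marks damaged mitochondria, measured 30.6, 32.7 and 30.3 CPM in OTSSP167, against 47.2, 35.6 and 37.6 CPM in DMSO, and its log2 fold change of -0.36 did not pass (SE 0.13, adjusted p = 0.0687).

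Ordered by level per kilobase of exon, GABARAP led with 91.6 CPM per kilobase in OTSSP167 and 87.1 in DMSO. BNIP3L (35.0 in OTSSP167, 30.7 in DMSO) and GABARAPL2 (26.0 in OTSSP167, 29.4 in DMSO) followed. ATG12 stood at 20.7 CPM per kilobase in OTSSP167 and 14.0 in DMSO, above ATG5 at 6.38 in OTSSP167 and 5.32 in DMSO. At the low end, OPTN (0.953 in OTSSP167, 0.528 in DMSO), WIPI1 (0.558 in OTSSP167, 1.31 in DMSO) and MAP1LC3A (0.367 in OTSSP167, 0.0958 in DMSO) were close to or under 1 CPM per kilobase. Of the 38 tested genes, 32 averaged over 10 CPM in both groups. This level does not show a precise estimate, since SQSTM1, TAX1BP1, AMBRA1 and ATG7 among them ranged over 2-fold within a group.

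Other genes of the pathway are described from 4 lists. Of 70 further genes, 67 were tested, and 21 rose and 9 fell, with a median log2 fold change of 0.23. This is 44.8% of those tested, near the 46.1% of all genes. Among the fusion genes, which join the autophagosome to the lysosome, 8 of 14 rose and 1 fell, which is 64.3% of that list. The SNARE genes YKT6 (360 ± 1.64 CPM in OTSSP167 and 221.9 ± 4.37 CPM in DMSO) and SNAP29 (137 ± 4.96 CPM in OTSSP167 and 69.2 ± 0.628 CPM in DMSO) rose by 0.70 and 0.98 on the log2 scale (adjusted p = 4.73e-05 and 9.83e-05). VPS16, a core subunit of the HOPS tether, fell by 1.07 (22.8 ± 3.25 CPM in OTSSP167 and 47.8 ± 2.24 CPM in DMSO, adjusted p = 0.00182), while VPS39, VPS33A, VPS18, VPS11 and VPS41, other HOPS genes, rose. VPS41 (log2 fold change 0.25, adjusted p = 0.0428) lost its call in 8 alternatives besides the 1.5-fold threshold, including each of the 6 with a library left out. STX17, the autophagosomal SNARE, measured 39.1, 5.47 and 35.1 CPM in OTSSP167, against 19.8, 19.5 and 29.8 CPM in DMSO, and did not pass (adjusted p = 0.834).

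Among 18 tested further receptors, 5 rose and 3 fell, which is 44.4%, beside 46.1% of all genes tested. SEC62, a receptor of the endoplasmic reticulum, measured 226 ± 2.79 CPM in OTSSP167 and 109 ± 2.28 CPM in DMSO (log2 fold change 1.06, adjusted p = 3.53e-05). TOLLIP, a ubiquitin-binding adaptor, rose by 1.42 (51.7 ± 2.45 CPM in OTSSP167 and 19.3 ± 0.899 CPM in DMSO, adjusted p = 0.000178). The mitophagy receptor genes BNIP3 (43.8 ± 2.39 CPM in OTSSP167 and 63.6 ± 2.47 CPM in DMSO) and PHB2 (241.7 ± 18.0 CPM in OTSSP167 and 326.7 ± 10.9 CPM in DMSO) fell by 0.54 and 0.43, with adjusted p = 0.00301 and 0.00338. Of 14 tested further core genes, 2 rose (14.3%) and the others did not pass. They were TECPR2, which binds ATG8 proteins (50.8 ± 0.328 CPM in OTSSP167 and 20.5 ± 1.51 CPM in DMSO, log2 fold change 1.31, adjusted p = 0.000245), and ZFYVE1, the PI3P-binding omegasome protein DFCP1 (45.4 ± 2.16 CPM in OTSSP167 and 20.0 ± 2.045 CPM in DMSO, log2 fold change 1.18, adjusted p = 0.000682).

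Of 21 regulators of autophagy, 6 rose and 5 fell, which is 52.4%, beside 46.1% of all genes tested. ATF4, a stress transcription factor that can induce autophagy genes, measured 768 ± 20.4 CPM in OTSSP167 and 276.5 ± 8.94 CPM in DMSO (log2 fold change 1.47, adjusted p = 1.57e-05). Its target DDIT3 measured 45.2 ± 4.22 CPM in OTSSP167 and 11.2 ± 0.354 CPM in DMSO (2.01, adjusted p = 0.00012) and shares 27.2% of its exon length with MARS on the opposite strand. The autophagy-inhibiting kinase gene MTOR fell by 0.23 (377.4 ± 12.8 CPM in OTSSP167 and 441 ± 7.415 CPM in DMSO, adjusted p = 0.00357). PRKAA2, a catalytic subunit gene of the autophagy-promoting kinase AMPK, fell by 0.60 (50.3 ± 5.38 CPM in OTSSP167 and 76.2 ± 3.10 CPM in DMSO, adjusted p = 0.00519). TFEB, the transcription factor that induces lysosomal and autophagy genes, measured 5.36, 6.80 and 5.13 CPM in OTSSP167, against 5.00, 6.96 and 5.31 CPM in DMSO (log2 fold change 0.00, SE 0.21, adjusted p = 0.994), whereas its relative TFE3 rose by 1.19 (adjusted p = 0.00106).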

How the data were processed

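The authors deposited 1 table of whole-number counts per gene symbol for 6 mRNA libraries, and no normalized values were part of it. FastQC 0.11.2, HISAT2 2.1.0, StringTie 1.3.5 and GRCh38.p13 are named in the submitters' processing notes, and the sources used here do not give the counting step, annotation, strand setting or filters. Counts were tested with edgeR 4.0.16 in R 4.3.3 (filterByExpr with its minimum count of 10, TMM scaling, robust quasi-likelihood F test with no other term, Benjamini-Hochberg over 14402 genes). A standard error is the fold change over the square root of F. For 58 symbols in several rows, the row with more counts kept the symbol. Positions and exon lengths are from GENCODE 29 (GRCh38) by symbol, promoters from RefSeq (GRCh38.p14).

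Members and lists were chosen with earlier results of these data known. Named are all members, and the 2 called genes of smallest p in each direction of each further list; STX17, TFEB, TFE3 and the other HOPS genes were chosen after their values were seen. For 5 further genes an older symbol was used. Libraries of a group differed by a chi-square of 93.2 to 110.4 per gene, where 1 is sampling noise, so none was a copy. In simulated counts for the 14402 genes, 13, 13, 34 and 37 of 50 genes changed by 1.5-, 2-, 4- and 8-fold were recovered, with 3 false calls. Far fewer genes were altered in that simulation than the 6638 that passed in the main test. Benjamini-Hochberg adjustment is stricter when few genes differ, so this recovery is no measure of power for the tests reported here. Alternatives were DESeq2 1.42.0, limma-voom (limma 3.58.1), 3 scalings, 2 filters, a 1.5-fold threshold, the replicate block and each library left out. The limit that a count of 0 allows, 3 counts, covers counting error only, and standard errors include the spread between libraries. An adjusted p with no tool named is from edgeR, and ranges of adjusted p include the 1.5-fold threshold.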

Additional observations from a re-analysis of the deposited data

How the results depend on the processing

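The number of autophagy genes called higher, 11, was 17 with DESeq2, 2 against a 1.5-fold change and 7 with the replicate block, and 6 to 10 with single libraries left out. The number called lower, 1, was 3 with DESeq2, 2 each with library size only, limma-voom and no low-count filter, and 1 to 4 with single libraries left out. All genes called numbered 2826 against a 1.5-fold change, where 12 further autophagy genes rose and 3 fell. Of 567 member results under alternatives, 0 changed direction with a call in either analysis, and the 7 genes named in the report as passing throughout did so in every alternative but the 1.5-fold threshold, which tests a larger change and which PIK3C3, ATG16L1 and FUNDC1 also passed. Counts not divided by length gave ATG8 family shares far from those per kilobase, as the report states. The OTSSP167 minus DMSO difference in the MAP1LC3B share was then 1.06 percentage points, larger than per kilobase. The differences of the other shares, and the paralog ratios, moved by less than the spread between replicates. The replicate numbers are not stated to pair the samples. Deviations of same-numbered libraries correlated by 0.0221 to 0.0324, and those of differently numbered libraries by -0.0213 to -0.0074. All are small, and whether equal numbers mark a shared culture was not tested. A call lost with the block, here or for a gene in the report, is a description and by itself no sign of a weaker effect. With the block, 8 of the 12 called genes passed. The causes of the other changes were not tested. Low counts limit ULK2 and MAP1LC3A, the cause of the 0 of GABARAPL1 was not tested, and the spread between libraries limits ATG2A, ATG7, SQSTM1, TAX1BP1, WIPI1 and AMBRA1.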
